A study of Caenorhabditis elegans with 10 samples.

Results

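The comparison described here set larvae homozygous for *sftb-1(cer39)* beside wild-type larvae at the second larval stage (L2). *sftb-1* encodes the *C. elegans* ortholog of human SF3B1, the large subunit of the SF3b complex that helps the U2 small nuclear ribonucleoprotein (snRNP) hold the intron branch point, and SF3B1 is the splicing factor gene most often mutated in several blood cancers and in uveal melanoma. In tumors its mutations are missense changes in the HEAT repeats and are best known for the use of cryptic 3’ splice sites. *cer39* carries 3 such changes in 1 protein, K718E, R643C and Q552P, and its RNA was measured to learn which transcripts and splicing events differ when all 3 are present. The 4 libraries compared, 2 of *cer39* (strain CER276, a single line) and 2 of wild type (N2), were chosen by genotype and stage from the 10 libraries of the series, with no use of measured values. All larvae had grown at 20 °C, and total RNA of whole animals was depleted of ribosomal RNA before stranded libraries were made. Wild-type larvae had passed through a flow sorter and *cer39* larvae were collected separately without sorting, so that sorting, collection and allele cannot be told apart in what follows. In whole larvae, fewer cells of a type and less RNA per cell cannot be told apart either. The paper reports a mild developmental delay of the triple mutant at the growth temperature used here. It states that this larval stage was taken to avoid possible indirect effects of developmental defects seen later. A part of developmental timing in the differences below, among them those of molting, collagen, heterochronic and germ line genes, was not tested. The 2 *cer6* libraries of the same stage (larvae homozygous for a deletion in *sftb-1*, sorted as those without the red balancer marker) entered the fit to estimate the spread and are set beside *cer39* in places. The libraries of a group are given as biological replicates, and the p-values measure the spread between only 2 libraries a group.

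The 3 substitutions were introduced by genome editing of *sftb-1*, which lies on chromosome III at III:4263786–4269270 (minus strand, WBcel235). The guides (crRNAs) and repair templates are shown because they define the allele. In the templates capitals mark every base that was changed, which includes the codon of the substitution and further changed bases around it.
K718E guide: tgatattgttgaaagcggat
K718E template: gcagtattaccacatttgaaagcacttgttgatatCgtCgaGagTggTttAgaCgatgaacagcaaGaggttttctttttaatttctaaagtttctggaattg
R643C guide: atgcacgagcggttgtatta
R643C template: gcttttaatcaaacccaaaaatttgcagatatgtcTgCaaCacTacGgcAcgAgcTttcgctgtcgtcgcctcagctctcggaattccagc
Q552P guide: agcgatggtgacatgagaag
Q552P template: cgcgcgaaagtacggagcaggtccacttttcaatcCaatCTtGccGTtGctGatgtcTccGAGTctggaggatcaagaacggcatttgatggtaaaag
The templates hold 8, 8 and 13 changed bases in 103, 91 and 98 bases. Because *cer39* replaces codons, the amount of *sftb-1* RNA does not check the labels. Its normalised read count was 6152 and 7222 in wild type against 7333 and 6706 in *cer39*, so the groups overlapped (log2 fold change 0.07 ± 0.129 (SE), limma adjusted p = 0.736).

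The libraries held 48113928 to 76425812 reads. The share of ribosomal RNA was 20.52% and 24.1% in wild type and 29.5% and 29.9% in *cer39*, and that of protein-coding genes was 71.7% and 76.3% against 63.4% and 62.8%. The shares therefore differed between the groups in every library, and their part in the results below was not tested. With the values set to equal protein-coding totals the median log2 fold change of all genes moved from 0.01 to 0.13. The fold changes below are on the log2 scale of the normalised read count plus 1, as *cer39* minus wild type, with the values as deposited unless the rescaling is named. The 2 wild-type libraries lay farther apart than the 2 *cer39* libraries, with a median absolute log2 difference of 0.251 against 0.156.

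Of 15011 genes tested, 618 were higher in *cer39* (4.12% of those tested) and 456 lower (3.04%) at an adjusted p under 0.05, together 7.15%. In all 1074 called genes the *cer39* libraries lay beyond both wild-type libraries, which was also so in 61.9% of all genes tested. Of the called genes, 595 differed at least 2-fold and 204 at least 4-fold. The calls rest on both *cer39* libraries. Without *cer39* replicate 1 or replicate 2, limma called 0 genes in either direction, while 1279 and 1272 genes were higher and 1303 and 1032 lower at an unadjusted p under 0.05 in these fits. Without *cer6* replicate 1 or 2, limma called 283 and 284 genes higher and 131 and 132 lower. On all libraries edgeR with TMM scaling called 712 genes higher and 389 lower, and DESeq2 1304 and 1268. With equal protein-coding totals the split was 731 higher and 301 lower. In the gene lists below, rose, fell and called refer to limma on the 6 libraries unless another fit is named, and list counts stand against the 4.12% higher and 3.04% lower of all genes. The lists and their members were chosen with earlier results of these data known, so list counts and medians are descriptions and not tests.

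The 12 largest rises among genes whose mean in the higher group was at least 100 were led by *F59A6.10* and *D1086.9*, for which the files give no function. *F59A6.10* had 5.71 and 1.11 in wild type against 235 and 123.3 in *cer39* (log2 fold change 5.51 ± 0.788 (SE), limma adjusted p = 0.0247). *D1086.9* had 0 and 3.32 in wild type against 47.0 and 162 in *cer39* (log2 fold change 5.41 ± 0.905 (SE), limma adjusted p = 0.0318). Both were near the floor of detection in wild type and well above it in *cer39*. *hrg-3*, which encodes a secreted heme carrier of the intestine, is described with the heme genes below. *tag-293* had 9.52 and 5.53 in wild type against 287 and 242 in *cer39* (log2 fold change 5.0 ± 0.582 (SE), limma adjusted p = 0.0189), and *nspe-5*, of a nematode-specific peptide family, had 6.66 and 6.64 in wild type against 155 and 114.4 in *cer39* (log2 fold change 4.13 ± 0.382 (SE), limma adjusted p = 0.0160). *phat-5*, of a family of pharyngeal gland proteins, was further above the floor in wild type than these genes. It had 189 and 131 in wild type against 2954 and 2194 in *cer39* (log2 fold change 4.01 ± 0.556 (SE), limma adjusted p = 0.0234). All 5 genes were higher in *cer39* than in *cer6* as well, where *F59A6.10* was at 1.82 and 6.95, *D1086.9* at 1.82 and 2.32, *tag-293* at 45.4 and 13.9, *nspe-5* at 9.98 and 18.5 and *phat-5* at 66.2 and 214 (limma, adjusted p = 0.00845 for *nspe-5* to 0.0218 for *D1086.9*).

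Some of the other large rises were larger still in *cer6*. *F19B10.13* was at 20.9 and 22.1 in wild type against 350.4 and 533 in *cer39* (log2 fold change 4.26 ± 0.273 (SE), limma adjusted p = 0.0107) and at 3156 and 2186 in *cer6*. The C-type lectin gene *clec-13* was at 21.9 and 17.7 in wild type against 322 and 184 in *cer39* (log2 fold change 3.56 ± 0.307 (SE), limma adjusted p = 0.0156) and at 1937 and 1540.2 in *cer6*. The *cer39* libraries thus lay between those of wild type and *cer6* for both genes, and *cer39* differed from *cer6* as well (limma, adjusted p = 0.00793 and adjusted p = 0.00802). *EGAP4.1* had 90.4 and 45.4 in wild type against 1157 and 909 in *cer39* and 318 and 256 in *cer6*, and *abf-4*, an antibacterial factor gene, had 25.7 and 54.2 in wild type against 732 and 454 in *cer39* (log2 fold changes 3.98 and 3.91, adjusted p = 0.0160 and 0.0171 from limma).

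The 12 largest falls included genes that were highly expressed in wild type. *H36L18.2* fell from 20998 and 15179 in wild type to 403 and 745 in *cer39* (log2 fold change −5.02 ± 0.315 (SE), limma adjusted p = 0.0107), and *argk-1*, for an arginine kinase, had 23299.6 and 26296 in wild type against 2472 and 1119 in *cer39* (log2 fold change −3.89 ± 0.380 (SE), limma adjusted p = 0.0162). Both kept intermediate levels in *cer6*, at 7444 and 8001 for *H36L18.2* and 10614 and 14228 for *argk-1*. *C55B7.3* had 793 and 434 in wild type against 0.770 and 16.09 in *cer39* (log2 fold change −6.74 ± 1.08 (SE), limma adjusted p = 0.0296), and the *cer39* libraries themselves were far apart at this low level. *dct-7* had 484 and 172 in wild type against 8.47 and 12.5 in *cer39* (log2 fold change −4.68 ± 0.628 (SE), limma adjusted p = 0.0227), while its 464 and 192 in *cer6* overlapped wild type. *T13F3.6* and *C09B8.4* were low in both mutants: *T13F3.6* had 3353 and 2163 in wild type against 98.6 and 118.9 in *cer39* and 103 and 34.7 in *cer6*. Of the remaining falls, *srh-237* and *str-7* are genes of chemoreceptor families, with log2 fold changes of −4.79 and −3.65 (adjusted p = 0.0254 and 0.0160 from limma), and *F15E6.4* and *F55F3.4* had −4.89 and −3.65 (adjusted p = 0.0234 and 0.0197 from limma). *hphd-1* and *pmp-5* are described with propionate metabolism below.

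**Figure D1:**
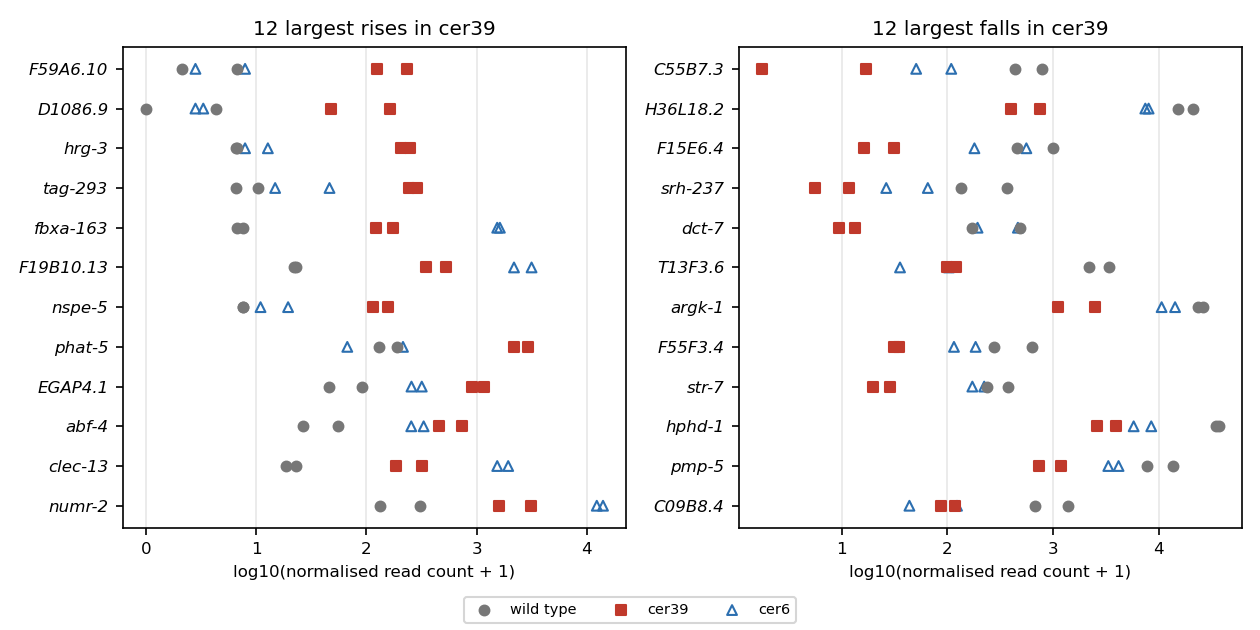
Normalised read counts (log10 of the value plus 1) of the 12 most raised and the 12 most lowered genes of *cer39*, 1 point per library, with 2 libraries each of wild type, *cer39* and *cer6*. For *hrg-3* the *cer39* points at 246 and 207 stand apart from both other groups, and for *F19B10.13* they lie between wild type and *cer6*.

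Most of the heme and metal genes listed changed in *cer39*. *C. elegans* cannot make heme and takes it from its food through heme transporters of the intestine, and the *hrg* genes are known to be induced when heme is scarce. Of 16 heme, metal and splicing stress genes, 9 rose and 1 fell, with a median log2 fold change of 1.63 against 0.01 over all genes tested. This list was chosen with earlier results known, so its contrast with all genes is descriptive only. The counts of genes higher and lower were 10 and 1 with DESeq2, 4 and 0 with only the 4 libraries compared, 9 and 0 with the replicate block, 8 and 0 without wild-type replicate 1 and 6 and 0 without wild-type replicate 2. *hrg-1*, for a heme transporter, had 394 and 333 in wild type against 3851 and 2671 in *cer39* (log2 fold change 3.14 ± 0.209 (SE), limma adjusted p = 0.0107). *hrg-4*, for the transporter of the intestinal surface, had 50.45 and 113.98 in wild type against 847 and 635 in *cer39* (log2 fold change 3.25 ± 0.409 (SE), limma adjusted p = 0.0201). *hrg-3* had 5.71 and 5.53 in wild type against 246 and 207 in *cer39* (log2 fold change 5.10 ± 0.339 (SE), limma adjusted p = 0.0107). In none of the 3 *hrg* genes did the groups come near each other. *hrg-2*, active in the hypodermis, rose less, with 155 and 139 in wild type against 719 and 423 in *cer39* (log2 fold change 1.90 ± 0.361 (SE), limma adjusted p = 0.0419).

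The *hrg* genes separated *cer39* from *cer6* too. In *cer6*, *hrg-1* was at 287 and 323, *hrg-4* at 39.9 and 48.6, *hrg-3* at 11.8 and 6.95 and *hrg-2* at 49.9 and 28.9. All 4 were higher in *cer39* than in *cer6* (limma, adjusted p = 0.00462, 0.00755, 0.00510 and 0.00696). The metallothionein gene *mtl-2* had 250.3 and 287 in wild type against 2309 and 2627 in *cer39* and 339 and 472 in *cer6* (log2 fold change 3.20 ± 0.196 (SE), limma adjusted p = 0.0107), and the mutants differed (adjusted p = 0.00510, limma). *cdr-1*, a gene induced by cadmium, had 108 and 101 in wild type against 319 and 342 in *cer39* (log2 fold change 1.66 ± 0.153 (SE), limma adjusted p = 0.0160). The second metallothionein gene, *mtl-1*, rose by 1.60 on the log2 scale (adjusted p = 0.0417, limma), with 37.1 and 47.6 in wild type against 105.5 and 158 in *cer39* and 122.5 and 171 in *cer6*. *ftn-1*, for the iron store ferritin, was the member that fell, with 794 and 712 in wild type against 210.2 and 352 in *cer39* and 1341 and 1158 in *cer6* (log2 fold change −1.46 ± 0.259 (SE), limma adjusted p = 0.0356). With equal protein-coding totals 9 members rose and 0 fell, so that the fall of *ftn-1* was no longer called. *numr-1* and *numr-2*, nuclear genes induced by metals and by disturbed splicing, rose with log2 fold changes of 2.66 and 3.47 (adjusted p = 0.0425 and 0.0234, limma). They are near-identical copies listed with the same value in several libraries, so how the reads divide between them is uncertain.

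Several abundant genes that handle propionate and single carbons fell. In worms, vitamin B12 serves methionine synthase and the canonical breakdown of propionate, and a shunt of *acdh-1*, *ech-6*, *hach-1*, *hphd-1* and *alh-8* takes over propionate when B12 is low. *hphd-1* had 37128 and 35003 in wild type against 2574 and 3958 in *cer39* (log2 fold change −3.50 ± 0.267 (SE), limma adjusted p = 0.0126), *ech-6* had 50736 and 37218 in wild type against 6504 and 8124 in *cer39* (log2 fold change −2.58 ± 0.258 (SE), limma adjusted p = 0.0162), and *hach-1* had 23539 and 17693 in wild type against 3484 and 3459.6 in *cer39* (log2 fold change −2.56 ± 0.215 (SE), limma adjusted p = 0.0146). In all 3 genes the higher *cer39* library was far below the lower wild-type library. *alh-8* had 41274 and 67138 in wild type against 21227 and 17390 in *cer39* (log2 fold change −1.45 ± 0.263 (SE), limma adjusted p = 0.0369). *acdh-1*, the first enzyme of the shunt, had 107412 and 63485 in wild type against 86.2 and 2499 in *cer39* and did not pass the threshold (adjusted p = 0.0510, limma), and the *cer39* libraries themselves were far apart. *nhr-68*, for a nuclear receptor that activates the shunt, had 3229 and 3166 in wild type against 842 and 1109 in *cer39* (log2 fold change −1.72 ± 0.156 (SE), limma adjusted p = 0.0160). *pmp-5*, for an ABC transporter, had 13723 and 7749.6 in wild type against 739 and 1198 in *cer39* (log2 fold change −3.45 ± 0.349 (SE), limma adjusted p = 0.0162). *mmcm-1*, for the B12-dependent mutase of the canonical route, had 8638 and 9094 in wild type against 7131 and 6160.4 in *cer39* and was not called (adjusted p = 0.123, limma). *hach-1*, *alh-8*, *acdh-1*, *nhr-68*, *mmcm-1*, *nhr-114* and *folt-2* were looked up after values of their neighbours in the pathway had been seen.

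In the methionine cycle and phosphatidylcholine list, 9 of 20 genes fell and 1 rose, with a median of −0.66. *metr-1*, for the B12-dependent methionine synthase, had 58817 and 45692 in wild type against 9584 and 8944 in *cer39* (log2 fold change −2.49 ± 0.160 (SE), limma adjusted p = 0.0107). Its reductase gene *mtrr-1* had 12843 and 6506 in wild type against 2212 and 2628 in *cer39* (log2 fold change −1.92 ± 0.323 (SE), limma adjusted p = 0.0320), and *mthf-1*, for the enzyme that provides methylated folate, had 27188 and 28949 in wild type against 8138 and 7104 in *cer39* (log2 fold change −1.88 ± 0.149 (SE), limma adjusted p = 0.0128). These 3 genes serve the same step, and all of their *cer39* libraries lay below wild type. *ahcy-1* (S-adenosylhomocysteine hydrolase), *mel-32* (serine hydroxymethyltransferase), *pmt-2* (phosphoethanolamine methyltransferase) and *sams-3* (S-adenosylmethionine synthetase) had log2 fold changes of −1.68, −1.01, −1.30 and −1.1 (adjusted p = 0.0178, 0.0162, 0.0198 and 0.0477, limma). *sams-1* was not called, with 30754 and 52378 in wild type against 23549.5 and 19008 in *cer39* (adjusted p = 0.110). *cth-1*, for cystathionine gamma-lyase, fell, with 15321 and 15855 in wild type against 3687 and 2443 in *cer39* (log2 fold change −2.38 ± 0.209 (SE), limma adjusted p = 0.0160). *cbs-1*, for the cystathionine beta-synthase that precedes it, was the only member to rise, with 2523 and 4018 in wild type against 13615 and 10887 in *cer39* (log2 fold change 1.93 ± 0.283 (SE), limma adjusted p = 0.0256). With equal protein-coding totals 7 members fell and 1 rose, and with only the 4 libraries compared 6 fell and 0 rose. *nhr-114*, for a nuclear receptor of this pathway, had 3582 and 2556 in wild type against 451 and 580.0 in *cer39* (log2 fold change −2.56 ± 0.210 (SE), limma adjusted p = 0.0136), and *folt-2*, of the folate transporter family, had 27983 and 24683 in wild type against 4378 and 6197 in *cer39* (log2 fold change −2.33 ± 0.253 (SE), limma adjusted p = 0.0176).

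Against *cer6*, which shares the wild-type controls, the same genes gave mixed results. *metr-1* was at 19577 and 21599 and *cth-1* at 7451 and 8519 in *cer6*, between wild type and *cer39*, and both were lower in *cer39* than in *cer6* (limma, adjusted p = 0.0110 and adjusted p = 0.0129). *hphd-1* was at 8471 and 5775 in *cer6* and also lower in *cer39* (adjusted p = 0.0389, limma). For *ech-6*, *hach-1*, *nhr-114*, *nhr-68*, *ahcy-1* and *mel-32* the difference between the mutants did not pass the threshold (adjusted p = 0.0611 for *nhr-114* to 0.975 for *mel-32*). *cbs-1* was at 3421 and 4827 in *cer6* and higher in *cer39* (adjusted p = 0.0199, limma).

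**Figure D2:**
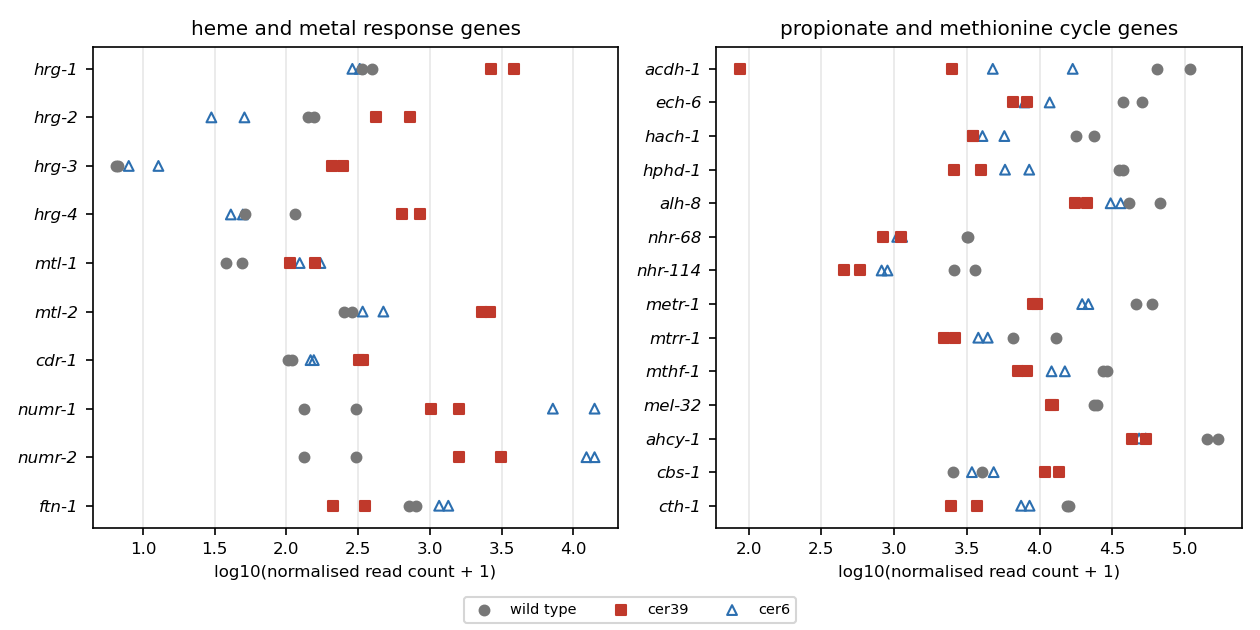
Normalised read counts (log10 of the value plus 1) of heme and metal genes and of propionate and methionine cycle genes, 1 point per library, for wild type, *cer39* and *cer6*. In *hrg-1*, *hrg-3*, *hrg-4* and *mtl-2* the 2 *cer39* points lie above those of both other groups, and in *metr-1*, *mtrr-1*, *mthf-1* and *cth-1* they lie below them.

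A smaller part of the genes of lipid and central carbon metabolism was lower. Of 62 fatty acid genes, 8 fell and 1 rose (median −0.37), against 18 lower with DESeq2 and 4 with only the 4 libraries compared. *fat-7*, for a delta-9 desaturase, had 725 and 521 in wild type against 87.8 and 93.8 in *cer39* (log2 fold change −2.75 ± 0.266 (SE), limma adjusted p = 0.0162). *acs-2*, for an acyl-CoA synthetase of beta-oxidation, had 13498 and 14387 in wild type against 5077 and 3992 in *cer39* (log2 fold change −1.63 ± 0.188 (SE), limma adjusted p = 0.0188). *kat-1*, for a thiolase, fell by 1.03 on the log2 scale (adjusted p = 0.0228), *acs-22* fell by 1.09 (adjusted p = 0.0206) and *hacd-1* rose by 0.93 (adjusted p = 0.0492, all limma). Of 41 genes of the citric acid cycle and glycolysis, 5 fell and 0 rose (median −0.41). They were *pck-2*, for phosphoenolpyruvate carboxykinase, with 82083 and 82070.2 in wild type against 42631 and 33839.8 in *cer39* (log2 fold change −1.11 ± 0.172 (SE), limma adjusted p = 0.0277), the pyruvate dehydrogenase genes *pdha-1*, *pdhb-1* and *dlat-1* (log2 fold changes −0.56, −0.62 and −0.70) and *sucl-2* (−0.55). With equal protein-coding totals 3 genes of the list were lower, and the count was 16 with DESeq2, 0 with only the 4 libraries compared, 0 with the replicate block, 2 without wild-type replicate 1 and 1 without wild-type replicate 2.

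The nuclear and the mitochondrial genes of the respiratory chain had medians of opposite sign. Of 34 nuclear respiratory chain genes 2 fell and 0 rose (median −0.22). *ucr-2.3*, of complex III, had 1146 and 1412 in wild type against 748 and 574 in *cer39* (log2 fold change −0.96 ± 0.178 (SE), limma adjusted p = 0.0398), and *atp-4*, of the ATP synthase, was at −0.52 on the log2 scale (adjusted p = 0.0497). Of the nuclear list, the count of lower genes was 7 with DESeq2, 0 with only the 4 libraries compared, 0 with the replicate block, 1 without wild-type replicate 1 and 0 without wild-type replicate 2. All 12 mRNAs of the mitochondrial genome had a log2 fold change above 0 (median 0.92), and 1 passed, *nduo-1*, for a complex I subunit, with 35961 and 30623 in wild type against 61093 and 66484 in *cer39* (log2 fold change 0.94 ± 0.184 (SE), limma adjusted p = 0.0445). The count of higher genes was 10 with DESeq2, 0 with only the 4 libraries compared, 0 with the replicate block, 0 without wild-type replicate 1 and 0 without wild-type replicate 2, so that the call of *nduo-1* was lost in each of the last 4 fits. The share of these mRNAs among the reads was 0.836% and 1.19% in wild type and 1.48% and 2.07% in *cer39*. Of 66 mitochondrial ribosomal protein genes 0 passed in either direction with limma (median −0.04; 4 were lower and 0 higher at an unadjusted p under 0.05, edgeR called 0 and DESeq2 2 lower), and *mrps-5*, the most abundant of them, had 5554 and 5646 in wild type against 5505 and 5251.5 in *cer39*.

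Genes called by limma were spread over several complexes of the splicing machinery. Within the 17S U2 snRNP list, the complex that holds SFTB-1 itself, 3 of 16 genes rose and 0 fell (median 0.40). The count of higher genes was 8 with DESeq2, 1 with only the 4 libraries compared, 1 with the replicate block, 2 without wild-type replicate 1 and 2 without wild-type replicate 2. The 3 called by limma were *rnp-6*, the ortholog of PUF60, with 2157 and 2532 in wild type against 4452 and 4444 in *cer39* (log2 fold change 0.93 ± 0.115 (SE), limma adjusted p = 0.0198), *smr-1*, related to the SMN protein, with 761 and 847 in wild type against 1373 and 1344 in *cer39* (log2 fold change 0.76 ± 0.110 (SE), limma adjusted p = 0.0254), and *rnp-3*, for a U2 snRNP protein, with 1179 and 1343 in wild type against 1858 and 2017 in *cer39* (log2 fold change 0.62 ± 0.123 (SE), limma adjusted p = 0.0460). The direct partners of SFTB-1 in SF3b did not pass in limma, although *phf-5* and *teg-4* had unadjusted p-values of 0.0108 and 0.0161 in limma and were called higher by DESeq2. *sftb-2* (SF3B2) was at 0.18 on the log2 scale (adjusted p = 0.322), *teg-4* (SF3B3) 0.35 (adjusted p = 0.0984), *sap-49* (SF3B4) 0.21 (adjusted p = 0.526) and *phf-5* (PHF5A) 0.59 (adjusted p = 0.0816). Nor were those of SF3a, *prp-21* at 0.45 (adjusted p = 0.120) and *repo-1* at 0.52 (adjusted p = 0.0866). The 2 subunits of U2AF, which bind the polypyrimidine tract and the 3’ splice site, were at −0.15 for *uaf-1* (adjusted p = 0.540) and 0.50 for *uaf-2* (adjusted p = 0.0681). Of the other members, *sfa-1* (SF1) was at 0.31, *mog-2* at 0.32, *ddx-15* (PRP43) at 0.31 and *moa-2* at 0.46, with adjusted p-values of 0.0770 to 0.273 from limma.

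All 7 genes of the Sm ring, the protein core shared by the spliceosomal snRNPs, rose (median 0.98). *snr-7* had 1613 and 1431 in wild type against 3956 and 3758 in *cer39* (log2 fold change 1.34 ± 0.136 (SE), limma adjusted p = 0.0162), and *snr-5*, *snr-3* and *snr-6* had log2 fold changes of 0.98, 0.98 and 1.09. Of 49 snRNA genes 30 were higher, and the snRNA share of all reads was 0.232% and 0.298% in wild type and 1.37% and 1.503% in *cer39*. The count of higher snRNA genes was 39 with DESeq2, 30 with only the 4 libraries compared and 33 with the replicate block. It was 30 without wild-type replicate 1 and 21 without wild-type replicate 2. Many snRNA genes are near-identical copies, so single members are uncertain. Of 32 genes of U1, the tri-snRNP, the PRP19 complex and the step factors, 9 rose and 0 fell (median 0.41). *isy-1*, of the PRP19 complex, had 1008 and 1018 in wild type against 1921 and 2044 in *cer39* (log2 fold change 0.97 ± 0.112 (SE), limma adjusted p = 0.0188), *eftu-2*, the U5 GTPase, 9236 and 9956 in wild type against 17969 and 17647 in *cer39* (log2 fold change 0.89 ± 0.108 (SE), limma adjusted p = 0.0195), and *ddx-23*, a U5 helicase, 2890.0 and 3113 in wild type against 5157 and 5249 in *cer39* (log2 fold change 0.79 ± 0.0993 (SE), limma adjusted p = 0.0198). In each the *cer39* libraries agreed closely with each other. *rnp-2*, of the U1 snRNP, was at 1.00 (adjusted p = 0.0214), and the other called members were *plrg-1*, *let-858*, *syf-1*, *cdc-5L* and *rbm-22*. With equal protein-coding totals 14 members of this list and 4 of the U2 list were higher, and for this list the count was 17 with DESeq2, 5 with only the 4 libraries compared, 5 with the replicate block, 5 without wild-type replicate 1 and 8 without wild-type replicate 2. In the Sm list 5 of 7 were called with the replicate block and without wild-type replicate 2.

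Of 31 SR protein and splicing regulator genes limma called 3 higher and 0 lower (median 0.08), DESeq2 5 higher and 2 lower, and limma without wild-type replicate 1 2 higher and 2 lower (median −0.02). *rsr-2*, for an SR-related matrix protein, had 1298 and 1529 in wild type against 2818 and 2696 in *cer39* (log2 fold change 0.97 ± 0.118 (SE), limma adjusted p = 0.0198), *rsp-7* had 2231 and 2469.9 in wild type against 4368 and 4331 in *cer39* (log2 fold change 0.89 ± 0.101 (SE), limma adjusted p = 0.0186), and *rsp-3*, for the worm SF2, had 5704 and 5749 in wild type against 8375 and 8301 in *cer39* (log2 fold change 0.54 ± 0.0956 (SE), limma adjusted p = 0.0356). In the list of exon junction, export and cap-binding genes 2 of 15 rose, *aly-1*, for an mRNA export adaptor, by 0.89 and *mag-1*, for the exon junction protein Mago, by 0.82 (adjusted p = 0.0230 and 0.0234, limma). Nonsense-mediated decay, which removes many mis-spliced mRNAs, had 1 of 9 genes lower and 0 higher. The called gene was *smg-1*, for the kinase of the pathway, with 4693 and 5370.4 in wild type against 3353 and 3116 in *cer39* (log2 fold change −0.63 ± 0.121 (SE), limma adjusted p = 0.0421). *smg-1* was also lower than in *cer6* (adjusted p = 0.0383, limma), where it stood at 4385.5 and 4861. It was not called by edgeR with TMM scaling, without wild-type replicate 2, with the replicate block or with only the 4 libraries compared.

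Several neuropeptide genes were higher in *cer39*. Of 106 neuronal genes 12 rose and 1 fell (median 0.40), and 84 had a log2 fold change above 0. The counts of genes higher and lower were 27 and 3 with DESeq2, 3 and 1 with only the 4 libraries compared, 6 and 1 with the replicate block, 17 and 1 without wild-type replicate 1 and 7 and 3 without wild-type replicate 2. *flp-1* had 2324 and 2192 in wild type against 4255 and 4614 in *cer39* (log2 fold change 0.97 ± 0.1004 (SE), limma adjusted p = 0.0162), *flp-11* 1527 and 1497 in wild type against 2708 and 2679 in *cer39* (log2 fold change 0.83 ± 0.101 (SE), limma adjusted p = 0.0198), and *flp-19* 763 and 707 in wild type against 1244 and 1341 in *cer39* (log2 fold change 0.81 ± 0.115 (SE), limma adjusted p = 0.0243). The *flp* genes encode FMRFamide-like peptides of neurons, and in these 3 the libraries of a group lay close together. *nlp-40*, with 2226 and 2261 in wild type against 3693 and 3849 in *cer39* (log2 fold change 0.75 ± 0.0929 (SE), limma adjusted p = 0.0198), encodes a peptide released by the intestine, and *nlp-34*, the member that fell (−1.55, adjusted p = 0.0296), belongs to an antimicrobial peptide cluster of the epidermis. The other rises were *flp-2*, *nlp-2*, *nlp-18*, *nlp-37*, *nlp-38*, *nlp-54*, *nlp-57* and the tubulin gene *tbb-4*, at 0.76 to 1.06. Genes of synaptic release such as *unc-64*, *snb-1* and *rab-3* (at −0.24, 0.04 and 0.50) did not pass in limma. In *cer6*, *flp-1* was at 4641 and 4638 and *flp-11* at 2925 and 2657, and the mutants were not shown to differ (adjusted p = 0.678 and adjusted p = 0.760, limma).

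Part of the germ line genes were lower. Of 41 germ line genes 12 fell and 0 rose (median −0.77), and 38 had a log2 fold change below 0. *zim-3*, for a meiotic pairing center protein, had 396 and 428 in wild type against 211 and 195 in *cer39* (log2 fold change −1.02 ± 0.137 (SE), limma adjusted p = 0.0226), and *syp-1*, for a protein of the synaptonemal complex, had 336 and 432 in wild type against 187 and 168 in *cer39* (log2 fold change −1.1 ± 0.174 (SE), limma adjusted p = 0.0289). *htp-1*, for a HORMA protein of meiotic chromosomes, had 356 and 438 in wild type against 176 and 186 in *cer39* (log2 fold change −1.12 ± 0.159 (SE), limma adjusted p = 0.0243), and *fbf-1*, for a PUF protein that keeps germ line stem cells, had 645 and 843 in wild type against 353 and 289.6 in *cer39* (log2 fold change −1.2 ± 0.187 (SE), limma adjusted p = 0.0280). In all 4 the groups stood well apart, with the *cer39* libraries close to each other. The other called genes were *syp-4*, *rec-8*, *prg-1*, *htp-2*, *csr-1*, *zim-1*, *zim-2* and *fbf-2*, at −1.42 to −0.82. The list's calls depend on the fit: with only the 4 libraries compared limma called 0, while 28 were lower at an unadjusted p under 0.05, and edgeR and DESeq2 called 10 and 25 lower. Without wild-type replicate 1, 19 were lower, and without wild-type replicate 2, 4. With the replicate number as a block 4 were lower. Without *cer39* replicate 1 the median of the list was −0.90 and without replicate 2 −0.58. Summed over its 41 members, the list came to 46812 and 62933 in wild type, to 33758 and 28688 in *cer39* and to 36416 and 42047 in *cer6*. Of 36 DNA replication and cell cycle genes 2 fell. *rpa-4*, for a single-strand DNA binding protein, fell by 0.76 and *cye-1*, for cyclin E, by 0.78 on the log2 scale (adjusted p = 0.0296 and 0.0386, limma). Neither was called with equal protein-coding totals, with only the 4 libraries compared, with the replicate block or without wild-type replicate 2. Of 5 sperm genes tested limma called 0, with 3 lower at an unadjusted p under 0.05, edgeR 0 and DESeq2 1 lower.

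Genes that follow the molting cycle were mostly lower but rarely past the test. Of 33 molting genes 30 had a log2 fold change below 0 (median −0.62), and 1 passed, *bli-4*, for a proprotein convertase of the cuticle, with 12816 and 13189.6 in wild type against 7863 and 7669 in *cer39* (log2 fold change −0.74 ± 0.116 (SE), limma adjusted p = 0.0283). The wild-type libraries differed among themselves here: *fbn-1*, for a fibrillin-like protein of the epidermis, had 7529 and 44492 in wild type against 6815 and 7289 in *cer39* (adjusted p = 0.314), so that wild-type replicate 1 sided with *cer39*. Without wild-type replicate 1, 8 members were lower (median −0.73), and without wild-type replicate 2, 1 (median −0.25). Summed over the list, the values were 215538 and 479109 in wild type and 158912.5 and 201813.5 in *cer39*. Of 126 cuticle collagen genes 4 rose and 4 fell (median −0.21). Leaving out a wild-type library turned this median: without wild-type replicate 1 it was 0.24 with 9 higher and 8 lower, and without wild-type replicate 2 −0.57 with 9 and 9. *col-145* had 4403 and 3430.5 in wild type against 769 and 610.4 in *cer39* (log2 fold change −2.50 ± 0.311 (SE), limma adjusted p = 0.0198) and *col-38* 108 and 135 in wild type against 14.6 and 27.7 in *cer39* (log2 fold change −2.52 ± 0.347 (SE), limma adjusted p = 0.0234), whereas *col-165* had 0.950 and 2.21 in wild type against 33.1 and 79.5 in *cer39* (log2 fold change 4.39 ± 0.677 (SE), limma adjusted p = 0.0277) and *col-74* 10.5 and 9.96 in wild type against 45.4 and 67.9 in *cer39* (log2 fold change 2.33 ± 0.332 (SE), limma adjusted p = 0.0243). Among 16 heterochronic genes, which time the larval stages, *lin-28* rose, with 657 and 679 in wild type against 1315 and 1587 in *cer39* (log2 fold change 1.11 ± 0.175 (SE), limma adjusted p = 0.0288), and *lin-46* fell, with 1720.1 and 796 in wild type against 300.3 and 356 in *cer39* (log2 fold change −1.84 ± 0.368 (SE), limma adjusted p = 0.0467). LIN-28 is known to act early and to hold LIN-46 down, and a link between these 2 RNA changes was not tested. The fall of *lin-46* was not called with equal protein-coding totals, with only the 4 libraries compared, without either *cer6* library or with the replicate block. The rise of *lin-28* was not called with the replicate block or without wild-type replicate 2.

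Markers of the large tissues were mixed. Of 36 muscle genes 4 rose and 1 fell (median 0.06), and the counts of genes higher and lower were 6 and 1 with DESeq2, 1 and 1 with only the 4 libraries compared, 1 and 1 with the replicate block, 1 and 1 without wild-type replicate 1 and 2 and 0 without wild-type replicate 2. The median was −0.13 without wild-type replicate 1. The troponin I gene *tni-1* had 8804 and 8371 in wild type against 15229 and 15065 in *cer39* (log2 fold change 0.82 ± 0.101 (SE), limma adjusted p = 0.0198), and the attachment genes *unc-97*, *unc-95* and *pat-6* were at 0.63, 0.73 and 0.50, while the troponin T gene *tnt-3* fell, with 6767 and 8070.5 in wild type against 3401 and 2921 in *cer39* (log2 fold change −1.23 ± 0.194 (SE), limma adjusted p = 0.0288). *unc-97* and *pat-6* were lower in *cer6* than in *cer39* (adjusted p = 0.00729 and adjusted p = 0.00903, limma). The rises of these 2 genes were not called without wild-type replicate 1, and the fall of *tnt-3* was not called without wild-type replicate 2. Of 38 intestinal genes 3 rose and 2 fell (median −0.13), among them *mtl-2*, *hrg-1*, *fat-7* and *ftn-1* described above. Of 27 pharyngeal genes *phat-5* rose and *abu-6* fell, with 134 and 85.2 in wild type against 31.6 and 13.4 in *cer39* (log2 fold change −2.32 ± 0.472 (SE), limma adjusted p = 0.0485), a call that was lost without wild-type replicate 1 or 2. Of 2 vitellogenin genes, yolk genes of adults, limma called 0 with 1 lower at an unadjusted p under 0.05, and edgeR called 0. It was *vit-4*, with 74.2 and 55.3 in wild type against 5.39 and 8.04 in *cer39* (adjusted p = 0.0920), which was called lower by DESeq2 and with only the 4 libraries compared.

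Of 20 heat shock genes 0 passed in either direction with limma, although the median was 0.91. At an unadjusted p under 0.05, 6 were higher and 1 lower, edgeR called 0, and DESeq2 called 3 higher. The small heat shock gene *hsp-16.2* had 51.4 and 86.3 in wild type against 1019.6 and 1148 in *cer39* (log2 fold change 4.00, adjusted p = 0.152 from limma), and *hsp-16.41* had 50.45 and 81.9 in wild type against 1256 and 1334 in *cer39* (log2 fold change 4.31, adjusted p = 0.155 from limma). In both genes the groups were far apart. The *cer6* libraries, which enter the same fit, were at 90.8 and 2807 for *hsp-16.2*. With only the 4 libraries compared, 8 of the 20 genes were higher and 0 lower. Of 16 genes of the unfolded protein responses *hsp-60*, for the mitochondrial chaperonin, fell, with 41826 and 46719.7 in wild type against 25354 and 23697 in *cer39* (log2 fold change −0.85 ± 0.135 (SE), limma adjusted p = 0.0289), and limma called 0 higher, with 1 at an unadjusted p under 0.05 and 1 each in edgeR and DESeq2. The fall of *hsp-60* was not called without wild-type replicate 2, with the replicate block or with only the 4 libraries compared. *hsp-16.2* and *hsp-16.41* were named after their values had been seen.

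In detoxification and defense families the counts of lower genes were mostly near the share over all genes, 3.04%, against 4.12% for higher genes. Of 173 cytochrome P450, UDP-glucuronosyltransferase and glutathione S-transferase genes 17 rose and 5 fell (median 0.08), and 12 of the rises were *gst* genes. *gst-24* had 379.8 and 673 in wild type against 5109 and 4216 in *cer39* (log2 fold change 3.20 ± 0.303 (SE), limma adjusted p = 0.0162), *gst-15* 78.1 and 79.7 in wild type against 344 and 327 in *cer39* (log2 fold change 2.08 ± 0.145 (SE), limma adjusted p = 0.0107), and *gst-10* 2548 and 2471 in wild type against 5026 and 5319 in *cer39* (log2 fold change 1.04 ± 0.0966 (SE), limma adjusted p = 0.0160). The falls were mostly *ugt* genes, such as *ugt-26* with 5235 and 4152 in wild type against 1166 and 1289.6 in *cer39* (log2 fold change −1.93 ± 0.177 (SE), limma adjusted p = 0.0160). Of 119 C-type lectin genes 15 rose and 5 fell (median 0.19), with *clec-17* at 552.1 and 574 in wild type against 3514 and 2865 in *cer39* (log2 fold change 2.49 ± 0.141 (SE), limma adjusted p = 0.0101), *clec-52* at 478 and 378 in wild type against 2126 and 2758 in *cer39* (log2 fold change 2.51 ± 0.204 (SE), limma adjusted p = 0.0136) and *clec-42* at a log2 fold change of 2.35. Among 67 antimicrobial peptide and lysozyme genes 8 rose and 1 fell, and the abundant lysozyme genes *lys-1* and *lys-2* rose, with 24302 and 24777 in wild type against 53665 and 44522 in *cer39* for *lys-1* (log2 fold changes 0.99 and 1.14, adjusted p = 0.0271 and 0.0214 from limma). Of 190 F-box genes, whose products pick proteins for degradation, 13 rose and 4 fell, with *fbxa-54* at 70.4 and 86.3 in wild type against 250.3 and 279 in *cer39* (log2 fold change 1.75 ± 0.180 (SE), limma adjusted p = 0.0162). Of 63 MATH and BATH genes 6 rose and 1 fell, led by *math-14* with 4.76 and 4.43 in wild type against 99.3 and 61.7 in *cer39* (log2 fold change 3.83 ± 0.371 (SE), limma adjusted p = 0.0162). The *pals* genes, known from the intracellular pathogen response, had 1 of 32 higher and 2 lower. With only the 4 libraries compared the higher genes numbered 7 for the detoxification list, 8 for the lectins, 3 for the antimicrobial list, 4 for the F-box genes and 2 for the MATH and BATH genes. Without wild-type replicate 2 the antimicrobial list had 9 higher and 9 lower (median −0.23), and without wild-type replicate 1 the *pals* genes had 6 higher. These families hold many similar copies, so single members are uncertain.

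Cytosolic ribosomal protein and proteasome genes stayed below the threshold in limma. Of 80 cytosolic ribosomal protein genes 0 passed in limma in either direction (median 0.13), with *rpl-3* at 202156 and 216288 in wild type against 202743 and 191081 in *cer39*, and 1 was higher at an unadjusted p under 0.05 and with edgeR and DESeq2. Of 31 proteasome genes 0 passed in limma (median 0.03), 1 was higher and 2 lower at an unadjusted p under 0.05, and edgeR and DESeq2 called 0, with *rpn-2* at 11647 and 12899.7 in wild type against 9754 and 9504 in *cer39*. The histone genes, with 26 of 61 higher and none lower, are protein-coding genes that mostly lack introns. Some are copies listed with the same values in every library, such as *his-27* and *his-49* or *his-19* and *his-53*. The count is therefore not one of separate measurements, and single members are uncertain. The count of higher histone genes was 34 with DESeq2, 18 with only the 4 libraries compared and 18 with the replicate block. It was 24 without wild-type replicate 1 and 18 without wild-type replicate 2.

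**Figure D3:**
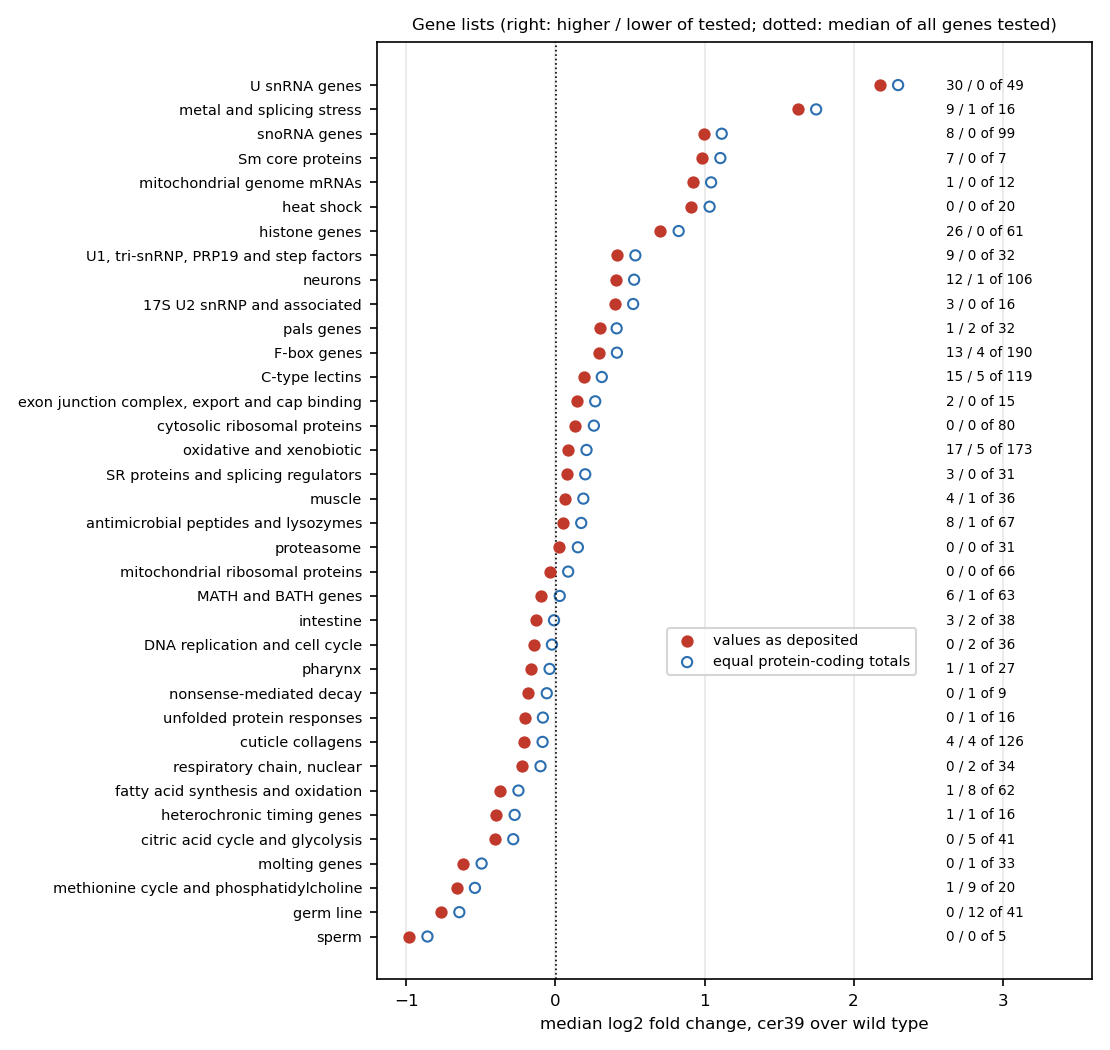
Median log2 fold change (*cer39* over wild type) of each gene list with at least 5 genes tested, with the values as deposited (filled) and after rescaling to equal protein-coding totals (open). Numbers at the right give genes higher, lower and tested, and the dotted line is the median of all genes tested at 0.01; the Sm core proteins stand at 0.98 with 7 of 7 higher and the germ line list at −0.77 with 12 of 41 lower.

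Across protein-coding genes the change in *cer39* followed the gene's structure. Genes without introns had a median log2 fold change of 0.39 (n = 208, or 0.23 for the 154 that are not histone genes). The median was 0.20 for genes with 1 intron (n = 1010), 0.13 for 2 to 3 (n = 3497), 0.01 for 4 to 6 (n = 4630), −0.10 for 7 to 10 (n = 3160) and −0.22 for 11 or more (n = 1768). The share of genes called higher went from 18.8% without introns to 1.07% with 11 or more, and the share called lower from 1.44% to 4.52%. With histone genes left out, 8.44% of the genes without introns were called higher, against 8.42% of those with 1 intron. All 4 pairs of a *cer39* and a wild-type library gave the same order of medians, with a range of −0.29 to 0.61 in the steepest pair and −0.10 to 0.29 in the flattest.

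Length and intron number go together, and the same trend was seen by length. The quintile of genes with the shortest transcripts had a median of 0.20 and the longest quintile −0.24. Within the shortest quintile, genes with 0, 1, 2 to 3 and 4 to 6 introns had medians of 0.42, 0.23, 0.20 and 0.14. Within the longest quintile, those with 2 to 3, 4 to 6, 7 to 10 and 11 or more introns had 0.02, −0.19, −0.23 and −0.26. The order by introns thus remained within both quintiles, over a smaller range. Length was not held fixed by this: across these intron groups the median length rose from 369 to 723 bases in the shortest quintile. In the longest it rose from 2614 to 3573.5 bases. The genes without introns in the shortest quintile also include histone genes. A part of introns apart from length was not tested. The 2 wild-type libraries differed along the same axis: replicate 2 over replicate 1 had a median of −0.11 in the shortest quintile and 0.15 in the longest, and the *cer39* libraries, as replicate 2 over replicate 1, 0.02 and −0.09. The part of such differences between libraries in the trend was not tested. In *cer6* against the same wild type the medians were 0.19 for genes without introns and −0.06 for those with 11 or more. These medians describe genes, which are not independent replicates.

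**Figure D4:**
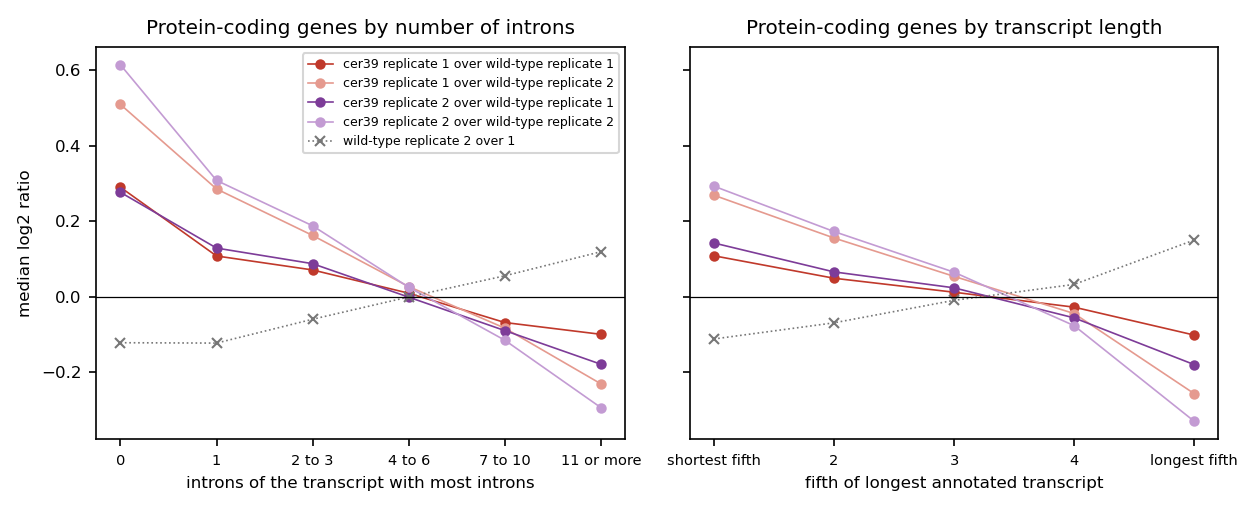
Median log2 ratio of protein-coding genes by number of introns and by quintile of transcript length, 1 line for each pair of a *cer39* and a wild-type library and a dotted line for wild-type replicate 2 over replicate 1. All 4 solid lines fall from left to right, and in the group with 11 or more introns they lie between −0.29 and −0.10.

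Tested 1 by 1, fewer transcripts passed than genes. Of 22811 transcripts, 128 were higher (0.561%) and 87 lower (0.381%) in *cer39*, in 204 genes. The gene was called the same way for 163 of the 215 transcripts, and 102 were the only transcript of their gene in the table. In others the transcript changed more than its gene. *mel-32* transcript C05D11.11b.3 went from 7253 and 6200.3 in wild type to 26.9 and 11.6 in *cer39* (log2 fold change −8.48 ± 0.394 (SE), limma adjusted p = 0.0169), a larger fall than that of the whole gene, and stood at 2266 and 2665 in *cer6*. *tnt-3* transcript C14F5.3d was listed at 1008 and 678 in wild type and at 0 in both *cer39* libraries (adjusted p = 0.0160), while *cer6* kept 515 and 951. Transcript F07A11.6e of *din-1*, for a nuclear corepressor, was listed at 412 and 599 in wild type, and T07C5.1c of *ugt-50* at 531 and 221 in wild type, each at 0 in both *cer39* libraries (adjusted p = 0.0283 and 0.0357). No fold is given against a group listed at 0, since a 0 for 1 transcript of several can be a failed estimate.

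The 5 largest rises were all of transcripts listed at 0 in both wild-type libraries. B0303.2.1 of *anmt-1* was at 445 and 512 in *cer39*, and E02H1.4.2 of *parp-2*, for a poly(ADP-ribose) polymerase, at 327 and 381. F01F1.5.2 of *dpf-4* was at 335 and 161, ZC84.3.2 of *cls-3*, of the CLASP family, at 165 and 298, and H19N07.4b.2 of *mboa-2* at 114.7 and 393. The adjusted p-values of these 5 lay between 0.0169 and 0.0443 (limma), and none of their 5 genes was called: *anmt-1* as a whole had 504 and 389.5 in wild type against 445 and 512 in *cer39*. In 2 genes 1 transcript rose and another fell. *crm-1*, for a regulator of BMP signalling, had B0024.14e at 0 and 1.11 in wild type and 206 and 229.7 in *cer39*, and B0024.14a at 171 and 86.3 and then at 0 in both. *nab-1*, for neurabin, had C43E11.6e.1 at 52.4 and 60.9 in wild type and 486 and 469 in *cer39* (log2 fold change 3.06, adjusted p = 0.0235 from limma), and C43E11.6e.3 at 414 and 309 and then at 0 in both. Without any single library of either group, or of *cer6*, at most 2 transcripts were called in either direction.

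The splicing sheet for *cer39* holds 381 of 6477 events detected in these 4 libraries. They had been chosen by a test on the same libraries, so the events are described and not tested here. Inclusion was recomputed for each library as the share of length-corrected reads that include the longer form. For its K718E analysis the paper states that splice junction reads and exon body reads were both used. An event counted as altered when the group means differed by over 0.1, every library had at least 10 reads and the groups did not overlap. By type, 50 of 82 alternative acceptor (A3’SS) events met this, 16 of 28 alternative donor (A5’SS), 103 of 162 skipped exon (SE), 46 of 90 retained intron (RI) and 6 of 19 mutually exclusive exon (MXE) events, 221 in 181 genes. The sizes were moderate: the median absolute difference was 0.161, 56 events exceeded 0.2 and the largest was 0.481. The shallowest library held a median of 142 reads per altered event.

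Acceptor choice shifted in both directions, with higher use of the upstream acceptor (the longer exon) in 26 events and lower in 24. The 2 acceptors lay 6 bases apart in 15 events and 9 bases apart in 9, together 48% of the altered events. In the annotation, 24.6% of 2486 neighbouring acceptor pairs with a shared donor lie 6 or 9 bases apart, and their median distance is 152.5 bases against 9 here. The listed events needed reads on both forms, which the annotation does not. Sites a multiple of 3 apart made up 20 of the 26 cases with higher and 20 of the 24 with lower use of the upstream site.

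The largest acceptor shift was in *nhr-114* (exon V:4188609–4188730, WBcel235, plus strand), whose 2 sites are 5 bases apart. Inclusion of the longer form was 0.695 and 0.692 in wild type and 0.350 and 0.345 in *cer39*, so the preferred site changed. This spacing is not a multiple of 3, and the gene itself fell. *nop-1* (III:5960525–5961035, sites 6 bases apart) went the other way, with 0.274 and 0.357 in wild type and 0.604 and 0.625 in *cer39*. *C50B6.3* (V:13314604–13315374, 6 bases) had 0.439 and 0.344 in wild type and 0.104 and 0.153 in *cer39*. *epn-1*, for the endocytic adaptor epsin (X:14817239–14817625, 6 bases), had 0.171 and 0.318 in wild type and 0.470 and 0.485 in *cer39*. In each of these the libraries of a group lay nearer to each other than to the other group. *sipa-1* (V:11632320–11632467, 6 bases) had 0.353 and 0.393 in wild type and 0.2005 and 0.0847 in *cer39*, and *sta-1*, for a STAT transcription factor (IV:16670718–16670840, 9 bases), had 0.442 and 0.319 in wild type and 0.542 and 0.664 in *cer39*. Farther sites were in play in *E02C12.8* (106 bases apart), with 0.691 and 0.768 in wild type and 1 and 0.921 in *cer39*, and in *Y39D8A.1* (463 bases apart), which used the upstream site alone in wild type and had 0.860 and 0.680 in *cer39*, with 25 reads in its shallowest library.

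Exons were left out more often in 70 of the 103 SE events and included more often in 33. The median exon length was 84 bases, against 152 for annotated internal exons, and 72.8% were a multiple of 3, against 39.4%. The annotated set holds all internal exons and is not limited to those that can be skipped. The altered exons were not set against the other detected SE events, so these differences may belong to skipped exons in general. The multiple of 3 held for 55 of 70 exons with lower and 20 of 33 with higher inclusion. After *swp-1*, for a splicing regulator (0.847 and 0.833 in wild type and 0.374 and 0.345 in *cer39*), and *pef-1*, for a phosphatase (0.412 and 0.556 in wild type and 0.889 and 0.879 in *cer39*), the largest shifts were in *col-99*, for a membrane collagen (exon IV:139551–139595), with 0.464 and 0.529 in wild type and 0.821 and 0.806 in *cer39*, in *Y69H2.3* (V:18661622–18661711), with 0.442 and 0.434 in wild type and 0.167 and 0.128 in *cer39*, and in *nid-1*, for the basement membrane protein nidogen (V:12914221–12914391), with 0.587 and 0.500 in wild type and 0.844 and 0.805 in *cer39*. Exons of *col-99*, *pef-1* and *nid-1* were thus gained and those of *swp-1* and *Y69H2.3* lost. The groups do not overlap in these events because the rule for altered events required it. Of 36 muscle genes, 4 hosted an altered event of any type: *tnt-3*, *unc-89* (obscurin), *lev-11* (tropomyosin) and *ttn-1* (titin). Over all genes tested, 181 of 15011 hosted one, and the number of exons per gene was not taken into account. The 28-base exon of *tnt-3* had inclusion of 0.554 and 0.500 in wild type and 0.1997 and 0.302 in *cer39*, an event below the 5 largest that was picked because the gene's transcripts are described above.

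Introns were retained more often in 29 of 46 RI events. Introns with higher retention had a median length of 53 bases and those with lower retention 105, against 68 for all annotated introns. Their length was a multiple of 3 in 16 of 29 and 9 of 17, against 33.1% of annotated introns. The annotated set holds all introns, and the other detected RI events were not compared. Besides *cids-2* (0.141 and 0.256 in wild type and 0.606 and 0.734 in *cer39*), the largest gains were in *acdh-2*, for an acyl-CoA dehydrogenase (0.296 and 0.302 in wild type and 0.714 and 0.507 in *cer39*), *F44G4.6* (0.602 and 0.437 in wild type and 0.779 and 0.859 in *cer39*) and *F19G12.9* (0.778 and 0.608 in wild type and 0.981 and 0.942 in *cer39*). Retention fell in *rbm-5*, for an RNA-binding splicing factor (0.685 and 0.587 in wild type and 0.386 and 0.428 in *cer39*). The *acdh-2* gene had a normalised read count of 10500.4 and 7014 in wild type against 234 and 505 in *cer39* (adjusted p = 0.0674, limma), so its retained share rose while the gene was low and not called. Donor choice shifted by 0.316 in *rpi-1* (0.575 and 0.347 in wild type and 0.786 and 0.768 in *cer39*), and by smaller amounts in *ceh-89* (0.280 and 0.208 in wild type and 0.548 and 0.449 in *cer39*), *T23E7.2* (0.472 and 0.514 in wild type and 0.243 and 0.243 in *cer39*), *nhr-213* (0.137 and 0.128 in wild type and 0.410 and 0.306 in *cer39*) and *K05F1.6* (0.632 and 0.701 in wild type and 0.852 and 0.870 in *cer39*). Among exclusive exons the kinase gene *unc-82* had 0.582 and 0.602 in wild type and 0.423 and 0.354 in *cer39*, and *let-2*, *ate-1*, *nipa-1* and *lat-1* differed by 0.199, 0.154, −0.128 and 0.120 between the group means.

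**Figure D5:**
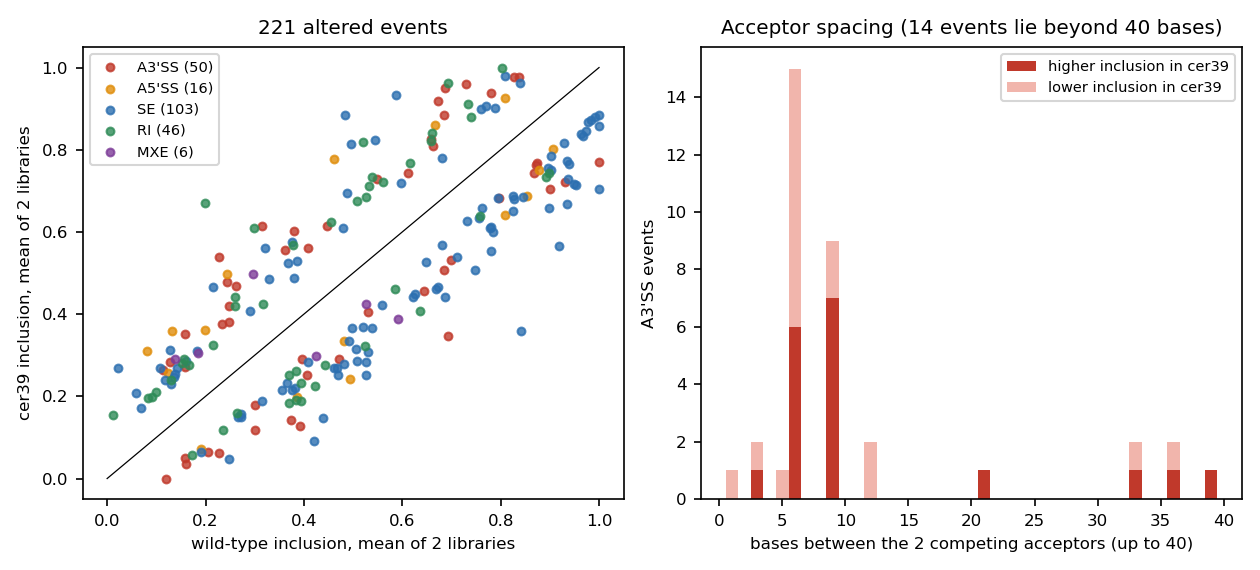
Left, mean inclusion in *cer39* against wild type (2 libraries each) for the 221 altered events, colored by type, with the line of equal inclusion; the strip around the line is empty because a difference of over 0.1 was required. Right, bases between the competing acceptors of the A3’SS events, where 15 lie at 6 and 9 at 9 bases.

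The level of genes with an altered event was called about as often as that of all genes. Of the 181 host genes, all tested, 6 were higher and 8 lower, 7.73% against 7.15% of all genes, and they made up 1.30% of the called genes. The called hosts included *nhr-114*, *tnt-3*, *sams-3* and *flp-1*. *flp-1* hosted an altered acceptor, and *sams-3* an intron with lower retention. Of the 31 genes of the splicing regulator list, *swp-1*, *ptb-1*, *etr-1* and *tdp-1* hosted an altered event, and none of these 4 was called as a gene (−0.22, −0.07, −0.35 and 0.09 on the log2 scale). Of the 16 genes of the U2 list 0 hosted an event. Since only 181 of 15011 genes tested hosted one, this does not set the U2 list apart. Over all genes, 204 had a called transcript. In 10 of the 181 host genes a transcript was called too. In *nhr-114* it was Y45G5AM.1a.1, with 2441 and 1796 in wild type against 182 and 248 in *cer39* (log2 fold change −3.29, adjusted p = 0.0328 from limma). In *cids-2* it was F36A2.1c, with 290.3 and 266 in wild type against 16.9 and 33.1 in *cer39* (log2 fold change −3.49, adjusted p = 0.0411 from limma), while retention of its 39-base intron rose. *din-1* and *ugt-50*, whose transcripts F07A11.6e and T07C5.1c were listed at 0 in *cer39*, each hosted an intron with higher retention.

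Set directly against *cer6* in the same fit, 1579 genes were higher in *cer39* (10.5% of those tested) and 1367 lower (9.11%). Of the 618 genes higher than wild type in *cer39*, 129 were also higher than in *cer6* and 145 were lower than in *cer6*. Of the 456 lower genes, 133 were lower than in *cer6* too and 29 were higher. The heme genes are an example of the first kind and *numr-2* of the second, with 14041 and 12329.7 in *cer6* against 1592 and 3127 in *cer39* (adjusted p = 0.0216, limma). Since both mutants were compared with the same 2 wild-type libraries and *cer6* larvae were sorted, these counts carry the same limits as the main comparison.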

How the data were processed

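Normalised transcript counts were deposited by the authors for 6 L2 libraries (2 each of wild type, *cer39* and *cer6*), a signal unit in which each library's read counts are divided by its DESeq2 size factor. Per the submitters' processing notes reads were handled with STAR and RSEM on WBcel235, with Ensembl release 87 given in the methods. Tool versions and any use of the molecular identifiers in the adapters are not given in the sources used here. All values were whole multiples of 1 read in each library (100% within 0.1 read), which gave the depths of 45313455 to 76425812 reads. Of 23422 transcript rows, 1 row with shifted cells was left out, and 23421 transcripts were summed into 15355 genes. Gene IDs were matched to the Ensembl 115 annotation (15296 of 15355) and to a name table (14833).

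Genes and transcripts with a mean of at least 10 over the 6 libraries were tested on log2(value + 1) with limma 3.58.1 in R 4.3.3 (trend, 3 groups, no block), with Benjamini-Hochberg adjustment over all features tested and a threshold of 0.05. These values on a log2 scale were computed here from the deposited values. edgeR 4.0.16 (quasi-likelihood) and DESeq2 1.42.0 were run on the recovered whole reads as alternatives. The other alternatives were the pseudocount, the filter, the replicate block, equal protein-coding totals, only 4 libraries, and each library left out. The limma fit of genes was tested on simulated counts with a fixed spread. The transcript, edgeR and DESeq2 fits were not tested in this way.

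Splicing used the deposited counts of reads that include or skip each event in the *cer39* sheet of the authors' rMATS output, with their effective lengths, and the deposited counts of detected events. The order of the 2 values in a cell gives no replicate number. The deposited score of the inclusion and skipping form lengths served only to correct the reads. The sheets' inclusion levels, p-values and FDR and the deposited fold changes and p-values of differential expression were not used. The other tables of the series, for other alleles or stages, were not used here. Acceptor motifs were not analysed here, and the sequences printed are the designed guides and templates of the study.

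The genes named are the 12 largest rises and falls without overlap of the groups whose higher group averaged at least 100, up to 4 members of each of 37 lists by adjusted p (or the most abundant where none passed), the U2 snRNP list, the 5 transcripts with the largest rise and fall, up to 6 genes with transcripts in both directions, and the largest events of each type (8 for A3’SS, 5 for the others) with at least 20 reads in every library. Other genes were named after their values had been seen: *hrg-2*, *hrg-4*, *mtl-1*, *numr-1*, *nhr-114*, *nhr-68*, *acdh-1*, *acdh-2*, *hach-1*, *folt-2*, *alh-8*, *mmcm-1*, *cbs-1*, *ahcy-1*, *pmt-2*, *mtrr-1*, *sams-3*, *hsp-16.2*, *hsp-16.41* and members listed without a full set of values. The members and lists were chosen with earlier results of these data known.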

Additional observations from a re-analysis of the deposited data

How the results depend on the processing

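Genes higher in *cer39* numbered 618 in the reported fit, 278 with only the 4 libraries compared and 1304 with DESeq2. Genes lower numbered 456, then 132 and 1268, and 301 with equal protein-coding totals. With each library left out in turn, 0 to 678 genes were higher and 0 to 566 lower. The lowest values came from leaving out either *cer39* library, in which limma left 1279 genes higher and 1303 lower without replicate 1, and 1272 and 1032 without replicate 2, at an unadjusted p under 0.05. Transcripts were less stable: 128 were higher and 87 lower, against 20 and 12 with edgeR and TMM, 19 and 12 with edgeR and RLE, 1383 and 1446 with DESeq2, and 56 lower with equal protein-coding totals. With only the 4 libraries compared limma called 0 transcripts, while 2233 were higher and 2366 lower at an unadjusted p under 0.05. With each library left out, 0 to 0 transcripts were higher and 0 to 2 lower. With the replicate number as a block, 331 genes were higher and 205 lower and 0 transcripts in either direction (2110 higher and 2293 lower at an unadjusted p under 0.05). The labels do not say that a number marks a shared batch, and the deviations of same-numbered wild-type and *cer39* libraries had a correlation of −0.17. A crossed pairing as the block, chosen after seeing the data, gave 687 genes higher and 680 lower, and 6 transcripts higher and 14 lower. The causes were not tested.

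All 129 named genes that were called kept their direction in each setting that gave them a value (5 had none with a mean of at least 50), and the number no longer called was 49 with only the 4 libraries, 28 with the block, 9 with equal protein-coding totals, 4 and 2 with edgeR (TMM and RLE), 0 with DESeq2, 129 without either *cer39* library, 48 without either *cer6* library, and 17 and 28 without wild-type replicate 1 and 2. Among genes that were not called, the sign turned for *rpl-3* (0.0361) and *mrps-5* (0.0648) with equal protein-coding totals, and for *sap-49* and *sftb-1* without wild-type replicate 1, where the values with 1 library left out ran from −0.0501 to 0.466 and from −0.0424 to 0.189. The median of the mitochondrial ribosomal protein list went from −0.04 to 0.09 and that of the MATH and BATH list from −0.09 to 0.03 with equal protein-coding totals. Of the 221 altered splicing events 56 passed an inclusion difference of 0.2. With 2 libraries a group the precision is set by their number rather than by depth.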
